A study of Mus musculus with 10 samples.

Results

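Enzymes of arginine, nitric oxide and polyamine metabolism were followed across 10 RNA-seq libraries of mouse jejunal epithelial cells, namely Ddah1, Ddah2, Nos2, Arg2, Ass1, Asl, Odc1 and Prmt1. They are 8 of the 35275 genes in the expression table and were picked by symbol, with the levels of these libraries already known, above all that Ddah1 lies near 0 in controls and high in knockout mice. The difference between vehicle knockouts and controls is therefore given for these 8 genes as a description, with no test. All mice were C57BL/6 adults of the genotype VillinCreERT2;MYO5Bflox/flox, labelled male, in which the villin promoter restricts the tamoxifen-activated Cre to epithelial cells. The 3 controls (mice 2, 4 and 5) were given corn oil in place of tamoxifen, so that tamoxifen and MYO5B loss cannot be told apart. Of the MYO5B-knockout mice, 4 (mice 3, 5, 6 and 7) received 2 mg of tamoxifen and a vehicle and are called vehicle knockouts. The other 3 (mice 1, 4 and 5), called LPA knockouts, received the same dose of tamoxifen and intraperitoneal lysophosphatidic acid (LPA, 3 mg/kg), a lipid that signals through cell-surface receptors. Cells were taken on day 4, and each library is 1 mouse.

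Arginine links these enzymes. Nitric oxide synthases turn it into nitric oxide and citrulline, arginases turn it into ornithine and urea, and argininosuccinate synthase and lyase rebuild it from citrulline. Ornithine decarboxylase opens the route to the polyamines, which dividing cells of the intestinal crypt need. Protein arginine methyltransferases methylate arginine within proteins, and when such proteins are degraded they release asymmetric dimethylarginine. It inhibits nitric oxide synthases and is removed by the dimethylarginine dimethylaminohydrolase DDAH1, and DDAH2 is named for the same activity. The small intestine is known as the main source of the citrulline that the kidney converts to arginine.

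Gene coordinates are those of the deposited table, on GRCm38. Levels are in FPKM (fragments per kilobase of gene scaled to the fragments counted on all genes), which can be compared between genes. Between 10949420 and 24470409 reads lay on genes in each library. Myo5b lay between 16.5 and 32 FPKM in controls and between 10.3 and 13.6 FPKM in all 7 knockout mice, a value over the whole gene. Few genes were detected in the libraries of control 2 and vehicle knockout 3, with 12242 and 12601 against 17309 to 18267 in the other 8, and mitochondrial genes took 17.4% and 18% of their reads against 1.98% to 3.50%. The libraries of vehicle knockout 3 and LPA knockout 1 went against the label male, with Xist at 8.41 and 15.1 FPKM and 0 reads on 4 Y-linked genes. A label of LPA knockout 1 also names both the vehicle and LPA, and it was placed by its title. Values without these libraries are given where they change a result. Keratin and other epithelial markers summed to between 6781 and 8306 FPKM in controls and between 8811 and 13206 FPKM in the 7 knockout mice. In vehicle knockouts against controls, 5 of these 8 markers had a log2 difference above 0. Epcam (-0.14), Cldn7 (-0.09) and Vil1 (-0.78) lay below 0, and none of the 8 had limma's adjusted p under 0.05. Stromal, muscle and endothelial markers summed to between 1.49 and 6.28 FPKM in controls, 0.546 and 3.47 FPKM in vehicle knockouts and 1.56 and 8.88 FPKM in LPA knockouts. Between vehicle knockouts and controls, 177 of 15729 genes tested were higher (1.13%) and 139 were lower (0.884%) at an adjusted p under 0.05 by limma.

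In 4 of the 8 genes every vehicle-knockout library lay above every control library, as in 11% of all 15729 genes tested. The 8 were chosen with these values known, so nothing is read from this count, which only picked the genes to show. The DNA just before the first annotated exon of these 4 is shown here (RefSeq sequence, GRCm38.p6, 5′ to 3′ on the strand of the gene). The stretches are those of Ddah1 (chr3:145758442-145758674, plus strand), Ass1 (chr2:31470020-31470206, plus strand), Odc1 (chr12:17544623-17544793, plus strand) and Prmt1 (chr7:44986569-44986670, minus strand). Capitals mark an E-box.
Ddah1: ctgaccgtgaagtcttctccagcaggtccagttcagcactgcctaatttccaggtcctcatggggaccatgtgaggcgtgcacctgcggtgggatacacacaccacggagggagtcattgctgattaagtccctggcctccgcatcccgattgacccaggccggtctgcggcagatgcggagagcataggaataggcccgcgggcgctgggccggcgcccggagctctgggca
Ass1: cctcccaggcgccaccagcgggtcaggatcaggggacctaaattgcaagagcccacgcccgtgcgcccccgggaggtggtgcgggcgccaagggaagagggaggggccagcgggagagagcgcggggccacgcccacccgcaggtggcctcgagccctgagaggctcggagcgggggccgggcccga
Odc1: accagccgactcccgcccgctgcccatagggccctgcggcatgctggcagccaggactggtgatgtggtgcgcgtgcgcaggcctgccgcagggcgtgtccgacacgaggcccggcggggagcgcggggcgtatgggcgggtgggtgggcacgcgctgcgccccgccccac
Prmt1: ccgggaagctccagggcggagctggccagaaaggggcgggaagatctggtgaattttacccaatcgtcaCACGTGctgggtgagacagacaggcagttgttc

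A RefSeq promoter was matched for 5 of the 8 genes (these 4 and Ddah2), and 3 motifs were searched on both strands of the 250 bases before the RefSeq start: the E-box CACGTG, to which MYC and USF proteins bind, the AP-1 motif TGANTCA and the GC box GGGCGG of SP1. Matches of different motifs did not overlap. The E-box was held by Prmt1, 181 bases before the start, and by Ass1, 36 bases before the start and inside the annotated first exon, and by neither Ddah1, Ddah2 nor Odc1. Over all 32851 promoters of that length 6.02% held it. No AP-1 motif was found in any of the 5, and 6.75% of all promoters held one. The GC box, held by 32.7% of all promoters, was found 4 times each in Odc1 and Prmt1, 2 times in Ddah2, 1 time in Ass1 and not in Ddah1. In Ass1 it lay 63 bases before the start, like the E-box inside the annotated first exon. The GC boxes of Odc1 at 15 bases and of Prmt1 at 128 and 105 bases also lay past the stretches shown above. The window of Ddah1 thus held none of the 3 motifs, whereas those of Ass1 and Prmt1 each held 2 of them.

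**Figure D1:**
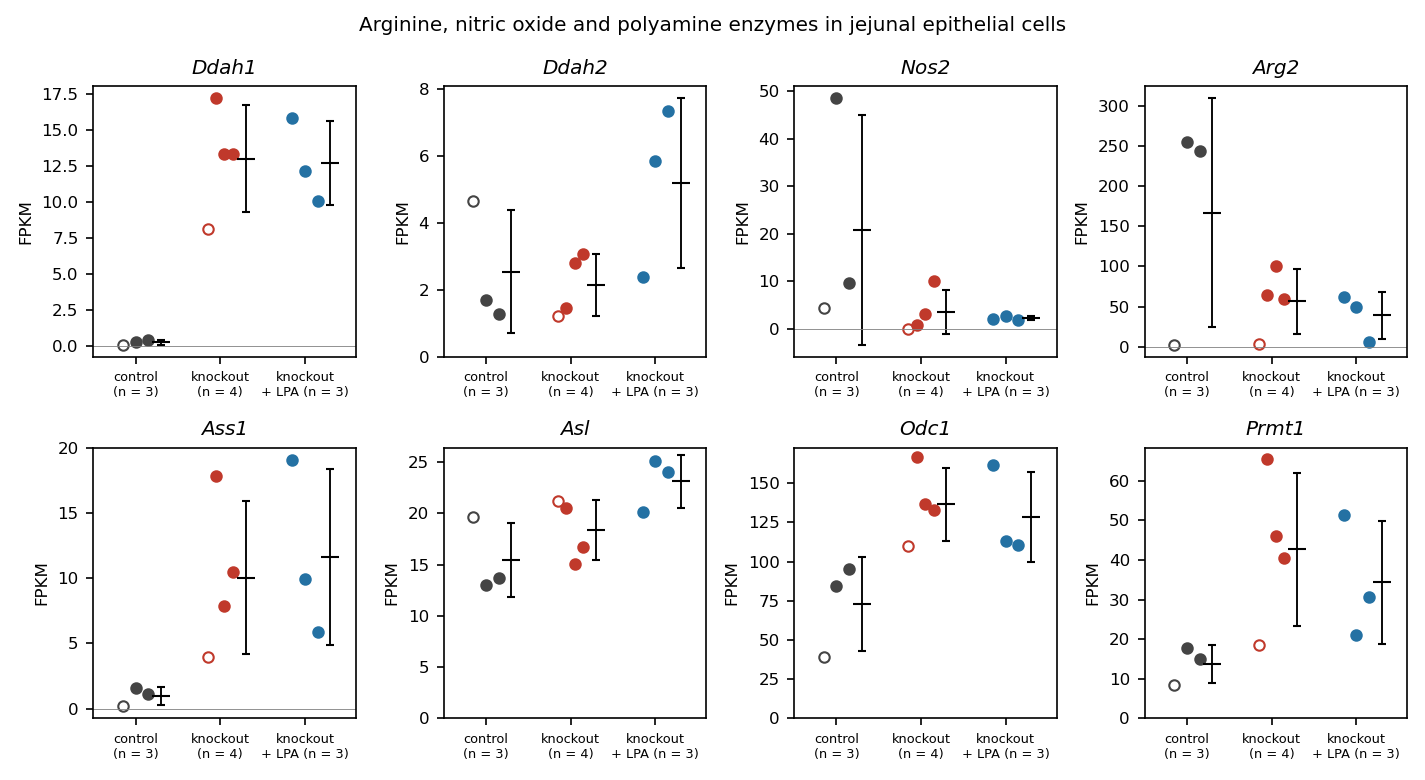
FPKM of the 8 enzymes in each library (linear axes; each point is 1 mouse, and the mean ± SD stands to the right of each group). Open points are control 2 and vehicle knockout 3, whose libraries detected few genes. Ddah1 stays at or below 0.379 FPKM in the 3 controls and at or above 8.10 FPKM in all 7 knockout mice, whereas controls and vehicle knockouts overlap for Ddah2, Nos2, Arg2 and Asl.

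DDAH1 degrades asymmetric dimethylarginine, and DDAH2 is named for the same activity. Ddah1 (ENSMUSG00000028194, chromosome 3 from 145758675 to 145894277) was close to absent in controls, at 0.0722, 0.224 and 0.379 FPKM, which are 3, 13 and 25 reads. It was present at 8.10, 17.2, 13.3 and 13.3 FPKM in vehicle knockouts 3, 5, 6 and 7 and at 15.8, 12.2 and 10.0 FPKM in LPA knockouts 1, 4 and 5. The 3 control libraries were thus the lowest of all, and no knockout library came near them. The mean was 0.225 ± 0.154 FPKM (SD, n = 3) in controls and 13.0 ± 3.73 FPKM (SD, n = 4) in vehicle knockouts, a ratio of 57.7. On the scale of log2(FPKM + 0.1), used for all log2 differences, the difference was 5.40 (standard error 0.43), which moved to 3.48 with a pseudocount of 1 FPKM. Leaving out control 2 and vehicle knockout 3 left a ratio of 48.4 and a log2 difference of 5.21. A pseudogene on the same strand, Rpl36a-ps2, lies over 321 bases of the Ddah1 locus. Since the cells were sequenced in bulk, more cells with Ddah1 and more Ddah1 RNA per cell cannot be told apart, here and for each gene that follows.

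Ddah2 (ENSMUSG00000007039, chromosome 17 from 35059035 to 35062095) had no such pattern. It lay at 4.66, 1.69 and 1.28 FPKM in controls and at 1.22, 1.47, 2.81 and 3.07 FPKM in vehicle knockouts. The groups overlapped, with control 2 the highest of these 7 libraries, and the log2 difference was -0.12 (standard error 0.59) with all libraries and 0.63 without control 2 and vehicle knockout 3. LPA knockouts held 2.38, 5.86 and 7.33 FPKM. As a share of the summed FPKM of both genes, Ddah1 made up 1.53%, 11.7% and 22.9% in controls, 86.9%, 92.1%, 82.6% and 81.3% in vehicle knockouts, and 86.9%, 67.5% and 57.8% in LPA knockouts. Ddah2 was therefore the more abundant of the pair in every control library and Ddah1 in every knockout library.

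NOS2 is the inducible nitric oxide synthase. Nos2 (ENSMUSG00000020826, chromosome 11 from 78920787 to 78960254) was uneven among controls, at 4.36, 48.4 and 9.69 FPKM. It was at 0, 0.927, 3.19 and 10.1 FPKM in vehicle knockouts and at 2.10, 2.70 and 1.93 FPKM in LPA knockouts. Vehicle knockout 7 lay above controls 2 and 5, so the groups overlapped, whereas the 3 LPA knockouts lay below every control mouse. The mean of 20.8 ± 24.1 FPKM (SD, n = 3) in controls rests on mouse 4, and the mean in vehicle knockouts was 3.56 ± 4.58 FPKM (SD, n = 4). The log2 difference was -3.24 (standard error 1.34), -1.98 without vehicle knockout 3, whose library had 0 reads on Nos2, and -2.74 without that mouse and control 2. The other synthases were barely read in any library, with at most 5 reads on Nos1 and at most 1 on Nos3. A list of 16 leukocyte markers, led in the controls by granzyme A (Gzma), summed to between 337 and 470 FPKM in controls, between 21.3 and 145 FPKM in vehicle knockouts and between 36.5 and 56.2 FPKM in LPA knockouts. Gzma alone lay between 226 and 331 FPKM in controls. Of the 15 of them tested, 12 were lower in vehicle knockouts and 2 passed the test (Gzma and Cd79a). The 3 above 0 were Itgam (log2 difference 0.997), Cd68 (0.445) and Csf1r (0.0539), and none of these passed. Ptprc, which defines leukocytes, lay at 0.367, 2.77 and 3.39 FPKM in controls and between 0.158 and 1.57 FPKM in vehicle knockouts (log2 difference -1.23, limma's adjusted p = 0.503). Among controls the sum of the 16 markers was lowest in mouse 4 (337 FPKM), which had the most Nos2, and was 409 and 470 FPKM in mice 2 and 5. In vehicle knockouts 3, 5, 6 and 7 it was 59.5, 21.3, 63.6 and 145 FPKM, highest in mouse 7, as was Nos2. The part of leukocytes in the Nos2 values was not tested.

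ARG2 is the mitochondrial arginase. Arg2 (ENSMUSG00000021125, chromosome 12 from 79130777 to 79156301) was at 255 and 244 FPKM in controls 4 and 5 but at 2.6 FPKM in control 2. It was at 2.62, 64.9, 100.3 and 59.0 FPKM in vehicle knockouts 3, 5, 6 and 7, and at 61.5, 49.7 and 5.47 FPKM in LPA knockouts 1, 4 and 5. The 2 libraries that detected few genes were the lowest of all 10 for Arg2. With them the log2 difference was -0.79 (standard error 1.73) and its sign changed when single mice were left out, to 0.40 without vehicle knockout 3, 0.32 without control 4 and 0.29 without control 5. Without both, the difference was -1.78 (standard error 0.85), each of the 3 remaining vehicle knockouts lay below each of the 2 controls, and the ratio of control to knockout means was 3.34. Arg2 gave between 88.5% and 100% of the summed FPKM of both arginases, and Arg1, the cytosolic enzyme, did not exceed 2.19 FPKM. The last 285 bases of Arg2 lie under the end of Vti1b on the other strand, a gene with 76.8% as many reads over the 10 libraries, and the strand setting of the counting is not given in the sources used here. An antisense gene, Gm48780, overlaps 997 bases of Arg2. Vti1b itself had a mean of 62.6 FPKM in controls and 57.8 FPKM in vehicle knockouts.

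ASS1 and ASL act in sequence, joining citrulline to aspartate and releasing arginine. Ass1 (ENSMUSG00000076441, chromosome 2 from 31470207 to 31520672) was at 0.214, 1.57 and 1.11 FPKM in controls, from 4, 41 and 33 reads. It was at 3.93, 17.9, 7.85 and 10.5 FPKM in vehicle knockouts and at 19.1, 9.92 and 5.89 FPKM in LPA knockouts. Every knockout library exceeded every control library. The mean was 0.965 ± 0.690 FPKM (SD, n = 3) in controls and 10.0 ± 5.87 FPKM (SD, n = 4) in vehicle knockouts, a ratio of 10.4, or 9.0 without the libraries of control 2 and vehicle knockout 3. The log2 difference was 3.36 (standard error 0.69). Within the vehicle knockouts, mouse 3, whose library detected few genes, had the lowest and mouse 5 the highest level of Ass1, as also of Ddah1, Odc1 and Prmt1.

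Asl (ENSMUSG00000025533, chromosome 5 from 130011258 to 130025132) stayed in a narrow range, at 19.6, 13.0 and 13.7 FPKM in controls, at 21.2, 20.6, 15 and 16.8 FPKM in vehicle knockouts, and at 20.2, 25.1 and 24.0 FPKM in LPA knockouts. The control and vehicle-knockout libraries overlapped, and the 3 LPA knockouts lay above every control. The log2 difference between vehicle knockouts and controls was 0.26 (standard error 0.26), and it turned to -0.03 under median-ratio scaling of the libraries. Set against Asl in the same library, Ass1 stood at 1.09%, 12.1% and 8.12% of its FPKM in controls, at 18.6%, 86.9%, 52.3% and 62.6% in vehicle knockouts, and at 94.5%, 39.5% and 24.5% in LPA knockouts. The level of the first enzyme of the pair thus came close to that of the second in some knockout mice and in no control mouse.

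ODC1 makes putrescine from ornithine and is the first step to the polyamines. Odc1 (ENSMUSG00000011179, chromosome 12 from 17544873 to 17551502) was at 38.9, 84.5 and 95.1 FPKM in controls, at 109.8, 166, 137 and 133 FPKM in vehicle knockouts, and at 162, 113 and 110.3 FPKM in LPA knockouts. All 7 knockout libraries lay above the 3 control libraries, with vehicle knockout 3 and control 5 the closest pair. The ratio of the means was 1.87, and 1.62 without control 2 and vehicle knockout 3. The log2 difference was 0.99 (standard error 0.34). A small nucleolar RNA gene of 136 bases, Gm22748, lies within the Odc1 locus on the same strand.

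PRMT1 is the methyltransferase that makes most of the asymmetric dimethylarginine in proteins. Prmt1 (ENSMUSG00000052429, chromosome 7 from 44975989 to 44986492) was at 8.35, 17.7 and 15 FPKM in controls and at 18.5, 65.6, 46.0 and 40.6 FPKM in vehicle knockouts. LPA knockouts held 51.4, 21.1 and 30.7 FPKM. Vehicle knockout 3 lay just above control 4, and the other 3 vehicle knockouts were well above all controls. The ratio of the means was 3.12 and the log2 difference 1.57 (standard error 0.47), or 1.60 without control 2 and vehicle knockout 3. A list of 10 markers of proliferating crypt cells was summed beside Odc1 and Prmt1. It came to between 70.3 and 130 FPKM in controls, between 226 and 380 FPKM in vehicle knockouts and between 164 and 307 FPKM in LPA knockouts, and all 10 had a log2 difference above 0 between vehicle knockouts and controls. Its part in the levels of Odc1 and Prmt1 was not tested.

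Between vehicle knockouts and controls, the libraries did not overlap for 4 of the 8 enzymes (Ddah1, Ass1, Odc1 and Prmt1), all higher in knockout mice. Of all 15729 genes tested, 11% did not overlap and were higher and 6.2% did not overlap and were lower, but the enzymes were chosen from these same values and nothing is read from their share. Without control 2 and vehicle knockout 3, 6 of the 8 did not overlap, with Asl joining the higher genes and Arg2 lower, where 56.1% of all genes did not overlap between 2 and 3 mice.

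**Figure D2:**
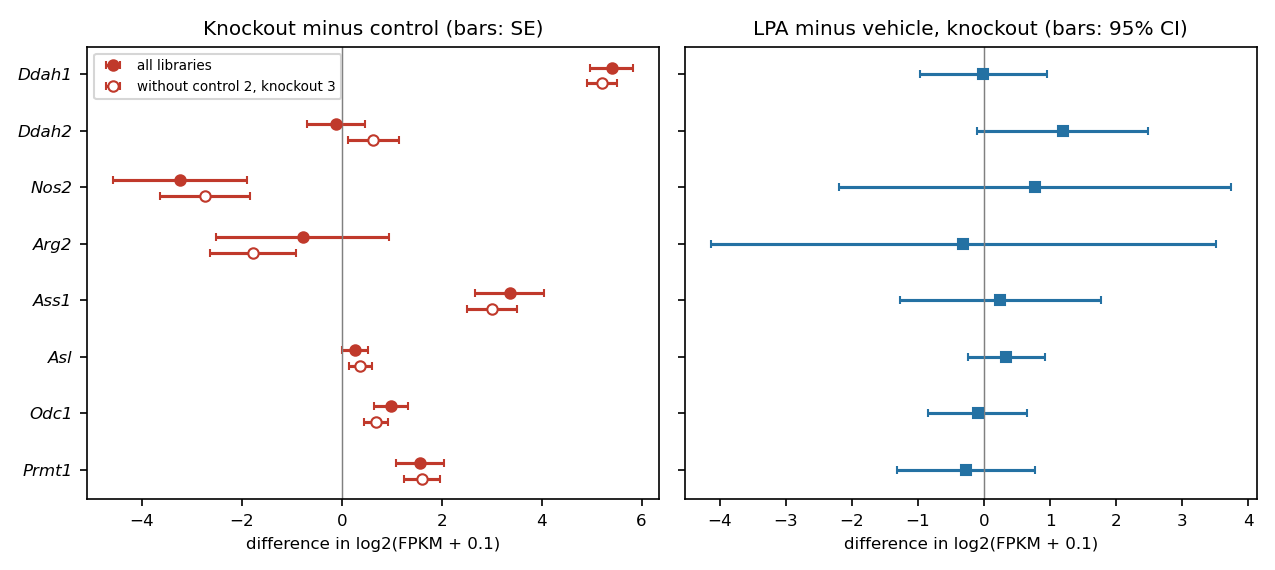
Differences in log2(FPKM + 0.1) for the 8 enzymes. Left, vehicle knockouts minus controls with standard errors, for all libraries (filled) and without control 2 and vehicle knockout 3 (open), where Ddah1 stands at 5.40 and 5.21 and Arg2 at -0.79 and -1.78. Right, LPA knockouts minus vehicle knockouts with 95% confidence intervals, all of which include 0.

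By level, Arg2 and Odc1 led in each group, and the order below them differed. In controls the means ran from Arg2 (167 FPKM) and Odc1 (72.9 FPKM) through Nos2, Asl and Prmt1 to Ddah2, Ass1 and Ddah1 (0.225 FPKM). Neighbours in this order overlapped in their range over mice, except Prmt1 and Ddah2. In vehicle knockouts Odc1 came first (137 FPKM), followed by Arg2 (56.7 FPKM), Prmt1 (42.7 FPKM), Asl, Ddah1, Ass1, Nos2 and Ddah2 (2.14 FPKM), and Odc1 and Arg2 were the one pair of neighbours that did not overlap. Ddah1 was the lowest of the 8 in controls and the fifth in knockout mice, at a level near that of Asl and Ass1. With LPA the order was the same from Odc1 to Ass1, and Odc1 did not overlap Arg2 nor Asl Ddah1.

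LPA knockouts and vehicle knockouts were compared to see whether LPA changed these enzymes once MYO5B was lost. This contrast did not choose the genes, and it was tested. None of the 8 enzymes passed, each with an adjusted p of 1 by limma, and the adjusted p stayed between 0.464 and 1 under every alternative run. Among all 15729 genes tested, 0 passed (0%), 459 had an unadjusted p under 0.05, and on the recovered reads 0 passed by edgeR and 5 by DESeq2. The intervals show how much change these mice leave room for. For Ddah1 the log2 difference of LPA minus vehicle was -0.01 (95% confidence interval -0.97 to 0.95), so that a doubling lay just outside the interval. The interval ran from -0.25 to 0.92 around 0.34 for Asl and from -0.85 to 0.65 around -0.10 for Odc1. Those of Prmt1 (-1.31 to 0.77 around -0.27) and Ass1 (-1.28 to 1.77 around 0.25) were wider, and those of Nos2 (-2.20 to 3.74 around 0.77) and Arg2 (-4.14 to 3.51 around -0.31) leave large changes in either direction undetected. Nos2 turned to -0.49 without vehicle knockout 3.

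Ddah2 had the lowest unadjusted p of the 8 in this contrast. Its mean was 2.14 ± 0.931 FPKM (SD, n = 4) with vehicle and 5.19 ± 2.54 FPKM (SD, n = 3) with LPA, and LPA knockouts 4 and 5 exceeded all vehicle knockouts while mouse 1 did not. The stromal, muscle and endothelial markers summed to 7.76 and 8.88 FPKM in LPA knockouts 4 and 5, to 1.56 FPKM in LPA knockout 1 and to at most 3.47 FPKM in vehicle knockouts, and among controls they were highest in control 2 (6.28 FPKM), which also had the most Ddah2. In vehicle knockouts 3, 5, 6 and 7 the sums were 3.47, 0.546, 0.849 and 1.73 FPKM, beside 1.22, 1.47, 2.81 and 3.07 FPKM of Ddah2. The highest sum of this group thus stood beside its lowest Ddah2. The part of these markers in the Ddah2 values was not tested. The log2 difference was 1.19 (95% confidence interval -0.10 to 2.49), and limma's p was 0.0675 before adjustment and its adjusted p was 1. The libraries of the 2 knockout groups overlapped for all 8 enzymes, and 4.16% of all genes did not overlap. Without vehicle knockout 3 and LPA knockout 1, the libraries that went against the label male, 6 of 8 did not overlap (Ddah2 and Asl higher with LPA, Ddah1, Arg2, Odc1 and Prmt1 lower), but with 3 mice against 2 the same held for 41.7% of all genes. Without LPA knockout 1 alone, 2 of 8 did not overlap (Ddah2 and Asl, higher with LPA), as did 12.8% of all genes. The comparison of LPA knockouts with controls would share the control libraries of the first comparison, and its values stand side by side above. How many of all genes did not overlap between these groups was not counted. Nothing is therefore read from the separation of LPA knockouts and controls for Nos2, Asl or the other enzymes.

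The other genes of these pathways were followed through 5 lists with 70 genes, of which 60 passed the filter on low values, and these genes were tested between vehicle knockouts and controls. None of the 60 passed by limma with all libraries, against 1.13% higher and 0.884% lower among all genes. By sign, 41 of the 60 lay above 0 and 19 below, with a median log2 difference of 0.44 beside 0.29 over all genes, of which 63.4% lay above 0. Median-ratio scaling of the libraries moved the median of all genes from 0.29 to 0.04, and the split of the 60 to 33 above and 27 below 0. Under it the medians of the polyamine and methyltransferase lists were lower, at 0.37 and 0.69 with 13 of 18 and 9 of 10 genes above 0, and those of the other 3 lists turned negative (-0.01 for arginine and citrulline, -0.19 for nitric oxide and -0.18 for transporters). On the recovered reads, edgeR called 3 of 59 tested pathway genes, against 3.82% of all genes, and DESeq2 10 of 61, against 11.5% of all genes. The groups did not overlap for 8 higher and 4 lower genes of the 60, beside 11% and 6.2% of all genes. Without control 2 and vehicle knockout 3, 4 of 61 were higher and 4 lower, against 3.55% and 2.98% of all genes, and these 8 are named below although they were chosen after their values were seen.

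**Figure D3:**
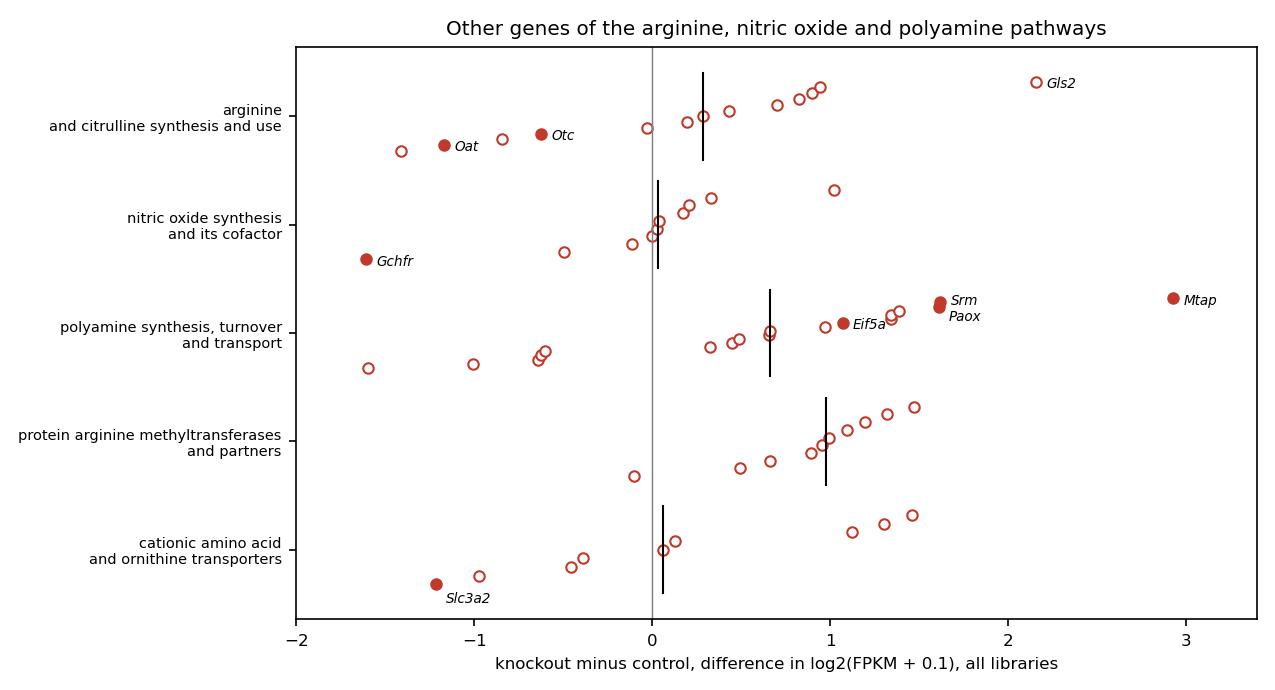
Log2 difference between vehicle knockouts and controls (all libraries) for the 60 tested pathway genes in 5 lists, each point a gene and each black line a list's median. Filled points passed limma's test once control 2 and vehicle knockout 3 were left out (Srm, Paox, Mtap and Eif5a higher, Otc, Oat, Gchfr and Slc3a2 lower), and none passed with all libraries.

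In polyamine metabolism, 13 of 18 tested genes had a log2 difference above 0, with a median of 0.66. The largest differences in size were those of Mtap, which salvages the methylthioadenosine left by polyamine synthesis, Srm, the spermidine synthase that follows ODC1, and Paox, which oxidises acetylated polyamines. Srm was at 10.6 ± 3.57 FPKM (SD, n = 3) in controls and 34.0 ± 13.1 FPKM (SD, n = 4) in vehicle knockouts, without overlap (log2 difference 1.62, limma's adjusted p = 0.0909). Without control 2 and vehicle knockout 3 its adjusted p by limma was 0.0248, and it passed with edgeR (0.0411) and DESeq2 (0.00112) as well. Mtap averaged 1.44 ± 1.26 and 7.18 ± 3.89 FPKM in these groups (log2 difference 2.93, limma's adjusted p = 0.179), with 0 reads in control 2 and a log2 difference of 1.98 without control 2 and vehicle knockout 3 (0.0165), and Paox 24.7 ± 15.4 and 82.7 ± 67.7 FPKM (1.61, limma's adjusted p = 0.166). Eif5a, the translation factor that carries hypusine made from spermidine, averaged 265 FPKM in controls and 565 FPKM in vehicle knockouts (limma's adjusted p = 0.141 with all libraries and 0.0388 without the pair). These 4 genes are the ones that passed without that pair of libraries. On the other side of 0, Oaz2, an antizyme that inhibits ODC1, averaged 13.0 ± 2.43 FPKM in controls and 6.57 ± 2.11 FPKM in vehicle knockouts without overlap (log2 difference -1.005, limma's adjusted p = 0.134). It passed with edgeR (0.0264), with DESeq2 (1.05e-05) and under median-ratio scaling and quantile normalization with limma (0.0203 and 0.0223). Sat2, named for a spermidine and spermine acetyltransferase, stood at -1.60 without overlap (limma's adjusted p = 0.137) and passed with DESeq2 (0.0316). Oaz2 and Sat2 were named after their values were seen. The proliferating crypt cell markers, all 10 of which lay above 0, had a median of 1.21, and Rrm2 among them passed (limma's adjusted p = 0.0112). Their part in the polyamine and methyltransferase values was not tested.

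Of the other protein arginine methyltransferases and their partners, 9 of 10 lay above 0 with a median of 0.98, and none passed. The largest log2 differences were those of Prmt7 (1.47), Carm1 (1.32) and Prmt6 (1.20), with limma's adjusted p-values of 0.224, 0.486 and 0.278. All 3 overlapped between the groups. Those that did not overlap, named after their values were seen, were Prmt5 (1.10), which makes symmetric dimethylarginine, its partner Wdr77 (0.99) and Clns1a (0.89), with limma's adjusted p-values of 0.189, 0.269 and 0.138.

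For arginine and citrulline the median was 0.28 over 13 genes, 8 of them above 0. Otc and Oat, both mitochondrial, were among those below 0. Otc, which makes citrulline from ornithine, was at 6.37, 53.9 and 57.2 FPKM in controls and at 6.40, 25.2, 26.0 and 22.3 FPKM in vehicle knockouts. Oat, which links ornithine to proline and glutamate, was at 29.4, 224 and 243 FPKM in controls and at 26.9, 71.1, 63.5 and 60.01 FPKM in vehicle knockouts. In both genes, as in Arg2, control 2 and vehicle knockout 3 were close to each other and far below the rest of their own group. Without this pair, the log2 difference was -1.18 for Otc (limma's adjusted p = 0.0365) and -1.85 for Oat (0.00706), and with it -0.63 (0.712) and -1.17 (0.404). Markers of enterocytes, the cells in which these enzymes are known to act, were summed. They came to between 31652 and 41677 FPKM in controls and between 14484 and 26725 FPKM in vehicle knockouts. Fabp1, Fabp2 and Apoa1 led these sums in controls. Of the 10 markers, 8 lay below 0 and 2 above (Alpi at 1.11 and Apoa4 at 0.14), and none passed by limma. Control 2, low in Otc and Oat, had a sum of 31652 FPKM beside 31760 FPKM in control 4. The part of these markers in the Otc and Oat values was not tested. Gls2, a glutaminase, was at 2.16 and Gamt, of creatine synthesis, was at -1.41, both at low levels (at most 2.89 FPKM) and neither past the test (limma's adjusted p = 0.189 and 0.365).

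Nitric oxide synthesis also needs the cofactor tetrahydrobiopterin. Gch1, the rate-limiting enzyme for this cofactor, averaged 19.2 ± 3.28 FPKM (SD) in the 3 controls and 39.5 ± 9.92 FPKM in the 4 vehicle knockouts, with no overlap between the groups (log2 difference 1.02, limma's adjusted p = 0.108). Gchfr, the regulator through which tetrahydrobiopterin inhibits GCH1, was at 118 ± 54.6 and 36.5 ± 6.40 FPKM, again with no overlap (log2 difference -1.61, limma's adjusted p = 0.0565). It passed without control 2 and vehicle knockout 3 (0.0475), with a pseudocount of 1 FPKM (0.04997) and with DESeq2 (0.00712), and not with edgeR. Pts, which acts after GCH1, stood at -0.50 (limma's adjusted p = 0.399) and passed with DESeq2 (0.00924). Over the 10 genes of this list that were tested, 6 lay above 0 and the median was 0.03.

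Among transporters of arginine and ornithine, 5 of 9 lay above 0 with a median of 0.06. Slc7a1, the widespread arginine importer, had a log2 difference of 1.46 and Slc7a6 of 1.30 (limma's adjusted p = 0.186 and 0.224), and both passed with DESeq2 (0.0312 and 0.0458). Slc3a2, the heavy chain that partners several amino acid transporters, was lower in every vehicle knockout, at 43.1 to 78.3 FPKM against 105 to 205 FPKM in controls (log2 difference -1.22, limma's adjusted p = 0.0733). It passed with edgeR (0.0136), with DESeq2 (8.33e-10) and without control 2 and vehicle knockout 3 (0.0109). None of the 60 pathway genes passed between LPA and vehicle by limma. Of these, 3 had an unadjusted p under 0.05 by limma (Glul, Sat2 and Smox, all higher with LPA, named after their values were seen). The same held for 459 of all 15729 genes tested, and nothing is read from these 3.

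**Figure D4:**
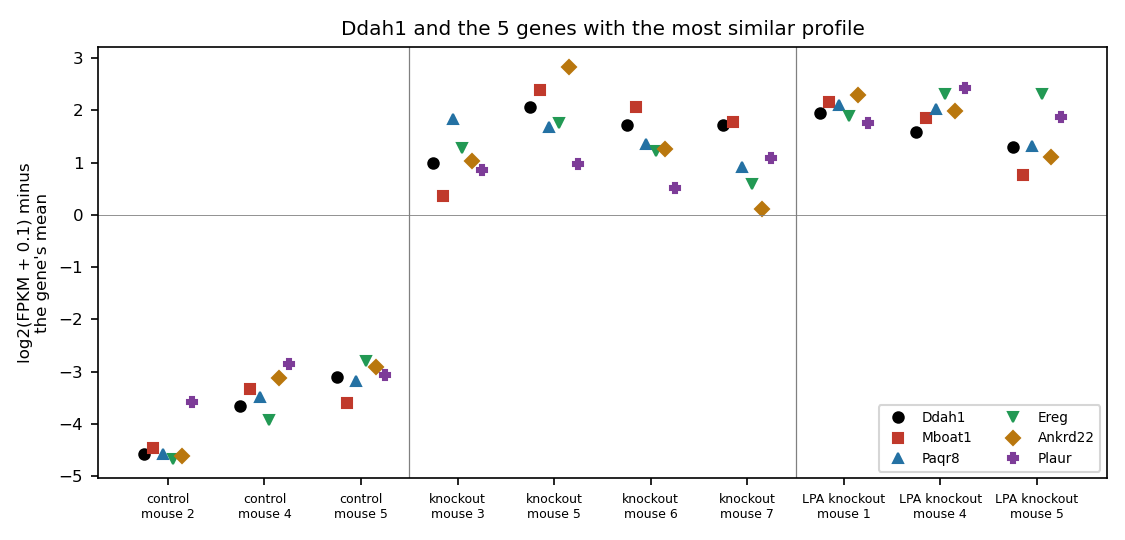
Log2(FPKM + 0.1) minus each gene's own mean over the 10 libraries, for Ddah1 and the 5 genes whose profile differs least from it. The libraries stand on the horizontal axis by group, and all 6 genes lie at or below -2.79 in the 3 controls and at or above 0.11 in the 7 knockout mice.

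Of all genes tested, the 5 with the profile most like that of Ddah1 over the 10 libraries, by the root mean square difference of the centred log2 values, were Mboat1 (0.38), Paqr8 (0.43), Ereg (0.58), Ankrd22 (0.63) and Plaur (0.76). Mboat1 is a lysophospholipid acyltransferase, Paqr8 a membrane progesterone receptor, Ereg the growth factor epiregulin and Plaur the urokinase receptor. Mboat1 averaged 0.643 FPKM in controls, 34.3 in vehicle knockouts and 31.7 with LPA, and like Ddah1 it was lowest in mouse 3 and highest in mouse 5 of the vehicle knockouts. Paqr8 averaged 0.287, 13.3 and 17.3 FPKM in these groups, close to the levels of Ddah1. Plaur averaged 1.63, 27.8 and 62.7 FPKM, Ereg 0.204, 8.68 and 16.5 FPKM, and Ankrd22 0.137, 7.69 and 8.97 FPKM. The likeness is a description over 10 libraries that share the 3 groups.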

How the data were processed

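RNA of jejunal epithelial cells from 10 mice (3 control, 4 MYO5B-knockout and 3 LPA-treated MYO5B-knockout mice) was purified on poly-T beads and sequenced. The authors deposited FPKM for 35275 genes, and per the labels the tools included STAR 2.5, HTSeq 0.6.1, TopHat and DESeq2, on GRCm38. No scaling between libraries is stated. FPKM multiplied by gene length was a whole multiple of 1 step for 100% of values (tolerance 0.01 read), which gave the reads. Of the deposited counts compared, all from knockout mice with vehicle or LPA, 63 of 63 equalled them. No control library was compared in this way. Columns with the authors' own fold changes, p-values and pathway terms were not used.

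Genes averaging 0.1 FPKM or more over the libraries (15729) were tested on log2(FPKM + 0.1) by limma 3.58.1 (R 4.3.3) in 1 model of 3 groups with a trended variance, two-sided, with Benjamini-Hochberg adjustment over all genes and a threshold of 0.05. The fit was tested on simulated data in which all libraries shared a common profile, apart from depth and planted changes. No simulated library resembled those of control mouse 2 and knockout mouse 3, so the simulation does not show how the fit handles them. edgeR 4.0.16 (quasi-likelihood) and DESeq2 1.42.0 were run on the recovered reads as alternatives, beside other pseudocounts, filters and scalings and with each mouse left out. The enzymes, the pathway and marker lists and the alternatives were chosen with earlier results of these data known. The text names all 8 enzymes, the pathway genes past the threshold (otherwise the 3 of each list with the largest log2 difference in size) and the 5 genes most like Ddah1. Further pathway genes, such as Oaz2, Sat2, Prmt5 and those past the threshold without control mouse 2 and knockout mouse 3, were named after their values were seen. In 5 listed genes an older symbol was matched through its gene identifier. Of the 8 genes, 5 have the same coordinates in GENCODE M21, which gives Prmt1 another identifier. The labels do not say whether mice of a group shared a litter, so p-values set each difference against the spread between these mice alone. With all libraries, that spread within groups includes control mouse 2 and knockout mouse 3. Each library is too small a sample of reads to separate levels under 3 reads (0.0722 FPKM for Ddah1 in control mouse 2) from 0. Figures were drawn with matplotlib 3.10.9.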

Additional observations from a re-analysis of the deposited data

How the results depend on the processing

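No paired analysis was possible because vehicle-treated MYO5B-knockout mice have just the number 5 in common with the mice of either other group, and no label says that it marks a shared litter or batch. The log2 differences of Ddah1, Nos2, Ass1, Odc1 and Prmt1 between MYO5B-knockout and control mice kept their sign in all 20 alternatives, between 3.48 and 6.00, -4.21 and -1.98, 2.39 and 3.84, 0.59 and 1.23, and 1.25 and 1.92. Leaving out an LPA mouse or changing the filter on low values could not move these differences. Leaving out knockout mouse 3 and LPA mouse 1 repeated the value without knockout mouse 3. The enzymes were chosen from these same values, so nothing is read from the kept signs. With single mice left out, Ddah2 ran from -0.48 to 0.41 and Arg2 from -2.96 to 0.40, and edgeR and DESeq2 gave -0.72 and -0.77 for Ddah2 and -1.76 and -1.80 for Arg2. Without control mouse 2 and knockout mouse 3, Ddah2 was at 0.63, and without knockout mouse 3 and LPA mouse 1 Ddah2 was at 0.10 and Arg2 at 0.40. Asl turned to -0.0313 with median-ratio scaling, -0.0612 with edgeR and -0.0822 with DESeq2.

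Of LPA minus vehicle, leaving out single mice gave -0.22 to 0.14 for Ddah1, -0.49 to 1.74 for Nos2, -1.50 to 0.79 for Arg2, -0.19 to 0.65 for Ass1, -0.27 to 0.00303 for Odc1 and -0.62 to 0.0327 for Prmt1. Without control mouse 2 and knockout mouse 3, Nos2 was at -0.49 and Ass1 at -0.13, and without knockout mouse 3 and LPA mouse 1 they were at -0.45 and -0.57, with Arg2 at -2.13, Prmt1 at -0.96, Ddah1 at -0.39 and Odc1 at -0.37. Nos2 was at -0.68 with edgeR and -0.65 with DESeq2. The count of enzymes without overlap was 0 to 2 with single mice left out, 2 being without LPA mouse 1, and 6 without knockout mouse 3 and LPA mouse 1. DESeq2 called 5 genes of all.

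Between MYO5B-knockout and control mice, the 0 pathway genes became 1 with a pseudocount of 1, 1 with a mean of at least 1 FPKM, 3 with median-ratio scaling, 3 with quantile normalization, 3 with edgeR, 10 with DESeq2, 8 without control mouse 2 and knockout mouse 3, 1 without knockout mouse 3 and LPA mouse 1, and 0 to 2 with single mice left out, 2 being without control mouse 2 or knockout mouse 3. The 316 genes of all became 188 with no filter, 598 with median-ratio scaling (222 higher and 376 lower), 804 with quantile normalization, 519 with edgeR, 1768 with DESeq2 (755 higher and 1013 lower), 1032 without control mouse 2 and knockout mouse 3, and 44 to 448 with single mice left out, 44 being without control mouse 5. The cause of these shifts was not tested.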
